A study of Homo sapiens with 6 samples.

Results

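The interferon-stimulated and RNA-sensing genes followed here are 53 genes of a list, taken by name from a table of 58735 genes. They comprise 7 genes of RNA sensing (4 sensors, the adaptor MAVS and the enzymes PKR and ADAR, which act on double-stranded RNA), 10 transcription factors, receptor subunits and kinases of type I interferon signalling, and 36 effectors. Their RNA was compared in LoVo, an established human colorectal cancer cell line, after transfection with a control siRNA (si-NC, 3 libraries) or with an siRNA that targets SRSF11 (si-SRSF11, 3 libraries), a member of the serine/arginine-rich family of splicing factors. All 6 libraries therefore carry an siRNA, and no library of untransfected cells was analysed here. The labels do not say which of the siRNAs against SRSF11 was used or how long after transfection the RNA was taken. The RNA samples are described as 3 independent pairs but not as separate cultures, so the p-values measure the spread between these samples. The main test compared the 2 groups without the pairing. The comparison asks whether the level of each gene differed between the 2 groups of 3 libraries.

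RIG-I (DDX58) and MDA5 (IFIH1) bind double-stranded RNA in the cytoplasm and signal through MAVS on mitochondria to the kinases that activate IRF3 and IRF7, which turn on interferon genes. Secreted type I interferon binds the receptor subunits IFNAR1 and IFNAR2, whose kinases JAK1 and TYK2 activate ISGF3, a transcription factor complex that holds STAT2 and IRF9. ISGF3 binds the interferon-stimulated response element in the promoters of many effector genes, among them the IFIT, OAS and IFITM families and ISG15.

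The deposited values are raw read counts per gene, and the 6 libraries held 14369525 to 16685719 counts. Counts were scaled by TMM to CPM, the count of a gene per 1000000 counts of its library, and edgeR's quasi-likelihood test was run on the 15801 genes that reached 10 counts in 3 or more libraries. A gene is written as higher or lower in si-SRSF11 where its p, adjusted by the Benjamini-Hochberg method over the 15801 genes, was under 0.05, and a log2 fold change is si-SRSF11 over si-NC. SRSF11, the targeted gene, stood at 87.6, 84.3 and 87.5 CPM in si-NC and 50.4, 48.5 and 49.5 CPM in si-SRSF11 (log2 fold change -0.81, standard error 0.054, adjusted p = 6.1e-10), so the groups follow their labels. Mitochondrial transcripts took 7.0% to 7.25% of the counts in si-NC and 8.29% to 8.51% in si-SRSF11, a difference whose part in the values below was not tested. Of 8 colorectal epithelial markers, KRT8, KRT18, EPCAM, CDH1, VIL1 and CDX2 were expressed, with 955 or more counts in every library, and KRT20 and CEACAM5 were near absent, with 6 to 20 and 10 to 20 counts. CDX2 was the only one of the 8 that passed the test (log2 fold change 0.40, adjusted p = 0.00038). In all 6 libraries, the leukocyte markers PTPRC and MS4A1 had 0 counts. The leukocyte marker CD14 was detected, with 39 to 49 counts in si-NC and 55 to 67 in si-SRSF11, and did not pass. The 10 leukocyte markers summed to 4.74 to 5.31 CPM in si-NC and 5.56 to 6.09 CPM in si-SRSF11. The 10 markers of fibroblasts and endothelium summed to 21.2 to 24.8 and 25.8 to 31.0 CPM, with DCN, LUM and KDR at 0 counts and PDGFRB higher in si-SRSF11 (log2 fold change 0.70, adjusted p = 0.00023). COL1A1 was detected too, with 186 to 198 counts in si-NC and 179 to 206 in si-SRSF11, and did not pass.

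Several promoters of the list carry the sequence through which ISGF3 is known to act, and 6 of them are shown because their genes moved in opposite directions. The core of the interferon-stimulated response element was searched as GAAANNGAAA on both strands (TTTCNNTTTC on the other strand) in the 250 bases before the start of each gene, in RefSeq promoter sequences of GRCh38.p14. Each stretch below is read 5′ to 3′ along its gene, and the capitals mark one match. Other matches can overlap or adjoin it, in lower case.
IFIT1 (chr10:89392482-89392541, plus strand): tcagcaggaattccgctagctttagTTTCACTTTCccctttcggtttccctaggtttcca
OAS3 (chr12:112938306-112938365, plus strand): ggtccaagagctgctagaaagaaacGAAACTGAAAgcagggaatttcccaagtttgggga
IFITM3 (chr11:320861-320920, minus strand): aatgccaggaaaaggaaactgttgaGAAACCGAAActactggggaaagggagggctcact
LGALS3BP (chr17:78979947-78980006, minus strand): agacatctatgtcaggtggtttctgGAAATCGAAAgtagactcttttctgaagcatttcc
ISG15 (chr1:1013365-1013424, plus strand): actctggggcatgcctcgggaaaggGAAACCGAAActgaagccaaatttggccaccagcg
PLSCR1 (chr3:146544652-146544711, minus strand): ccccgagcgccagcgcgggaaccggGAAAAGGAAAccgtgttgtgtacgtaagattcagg
IFIT1, OAS3, IFITM3 and LGALS3BP were higher in si-SRSF11, and ISG15 and PLSCR1 were lower. The capitals end 107, 134, 26, 49, 98 and 70 bases before the start of the 6 genes in the order shown. Of 35116 promoters in the table, 1061 (3.02%) held a match. RefSeq entries were matched for 42 of the 53 members, and 19 of these (45.2%) held one. A match was found in 9 of 11 promoters of members that were higher (IFIH1, IFIT1, IFIT3, IFIT5, OAS3, IFITM3, LGALS3BP, PARP14 and IFI27, while DHX58, IFIT2 and IFITM2 were not matched), in 2 of 6 of those that were lower, in 7 of 22 of those that did not pass the test and in 1 of 3 of those not tested. The lower members with a match were ISG15 and PLSCR1, those without were IRF9, JAK1, TYK2 and TRIM25, and IRF3 was not matched. Whether a match goes with direction or with the role of a gene was not tested. A match of letters is not a measured binding site.

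Of the 53 members, 50 had enough counts to be tested, and 21 of them differed between the groups. In all, 14 were higher in si-SRSF11 (28%) and 7 were lower (14%), where 13.2% of all tested genes were higher and 11.4% were lower (24.6% in either direction). Over all tested genes, 2081 were higher and 1805 lower, and scaling by library size alone gave 1585 and 2289, with 11 members higher and 7 lower. Among protein-coding genes alone, 27.4% passed, 15.4% higher and 12.1% lower. The differences were small, since the 21 log2 fold changes were between 0.17 and 0.77 in size and none exceeded 1. In bulk RNA, fewer cells that express a gene and less of its RNA per cell cannot be told apart. The median log2 fold change over the 50 members was 0.12, and 0.0015 over all 15801 genes. Without si-NC replicate 3 it was 0.070. The 3 si-SRSF11 libraries lay all above the 3 si-NC libraries in 16 members and all below in 9, together 50% of the members tested against 38.8% of all tested genes. The 3 members that were not tested, SAMD9L, XAF1 and IFI44L, had 0 to 3 counts per library.

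**Figure D1:**
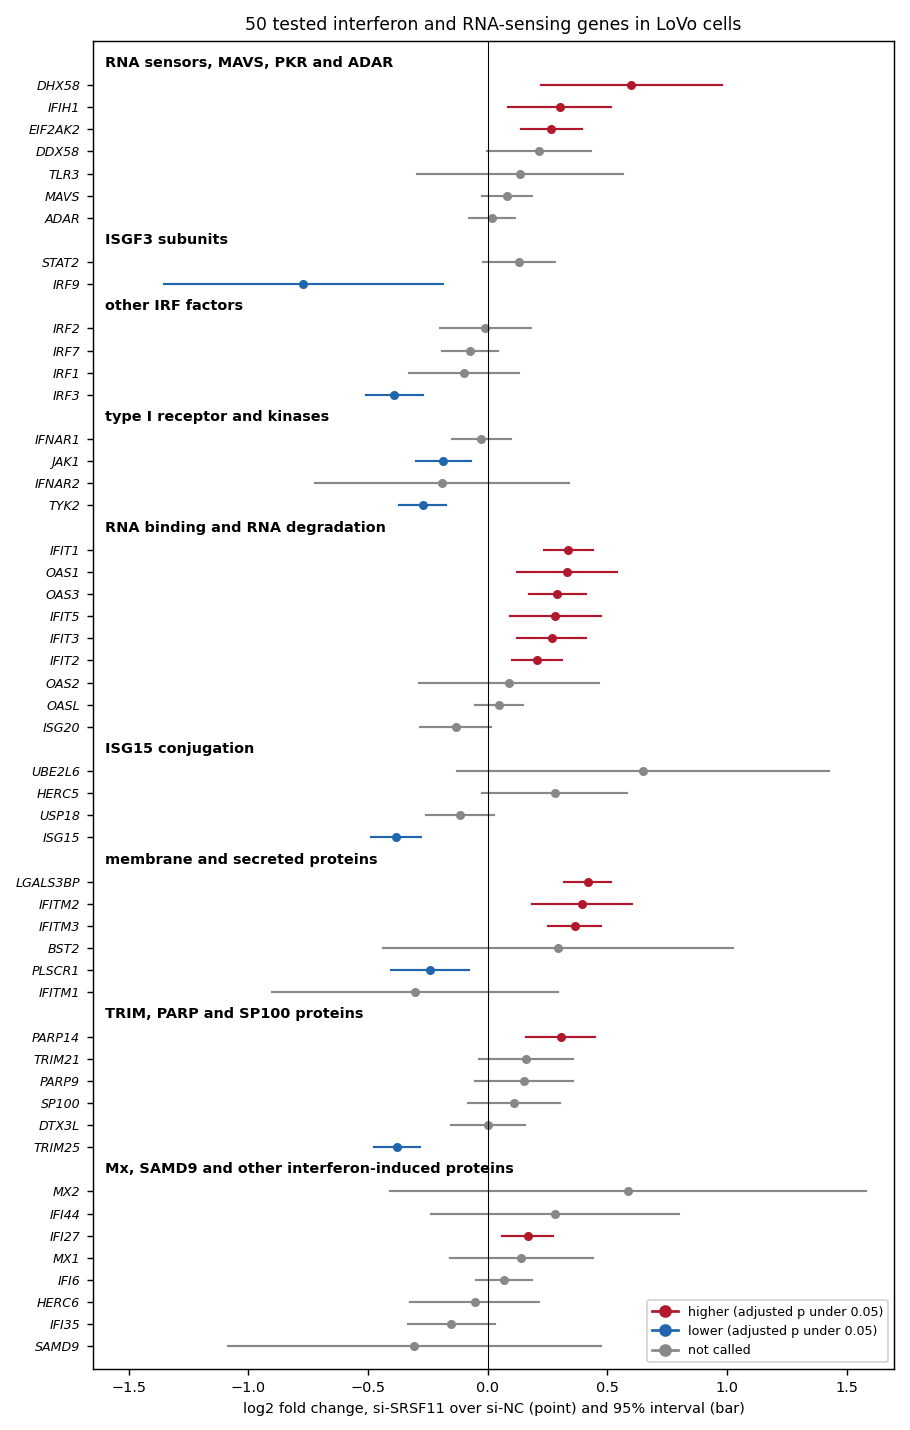
Log2 fold change of si-SRSF11 over si-NC for the 50 members tested, grouped by role, with points for the edgeR estimates, bars for 95% intervals and colours for genes with adjusted p under 0.05. Sensors and RNA-binding effectors with a coloured point lie to the right of 0, and IRF3, IRF9, JAK1, TYK2, ISG15, PLSCR1 and TRIM25 lie to the left.

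Of the 7 sensors, adaptor and sensor-linked enzymes, 3 (42.9%) were higher in si-SRSF11 and none was lower, with a median log2 fold change of 0.22. Of all tested genes, 13.2% were higher and 11.4% lower. PKR (EIF2AK2; ENSG00000055332, chromosome 2, 37099210 to 37157065), the kinase that shuts down translation on binding double-stranded RNA, stood at 66.5, 73.03 and 62.7 CPM in si-NC and 84.9, 81.95 and 76.3 CPM in si-SRSF11. Its 2 groups did not overlap (log2 fold change 0.27, standard error 0.061, adjusted p = 0.0027). MDA5 (IFIH1), the sensor of long double-stranded RNA, stood at 14.1, 11.97 and 12.8 CPM in si-NC and 17.1, 15.7 and 15.1 CPM in si-SRSF11, again without overlap (log2 fold change 0.30, standard error 0.10, adjusted p = 0.037). LGP2 (DHX58), a helicase of the same family that lacks the signalling domains, had 61, 54 and 70 counts in si-NC and 79, 94 and 126 counts in si-SRSF11. Its lowest si-SRSF11 library lay above the highest si-NC library and si-SRSF11 replicate 3 was the highest of the 6 (log2 fold change 0.60, standard error 0.18, adjusted p = 0.019). The calls of IFIH1 and DHX58 depend on single libraries: without si-NC replicate 2 neither passed, and IFIH1 was also lost without si-NC replicate 3, without si-SRSF11 replicate 1 or 2, under DESeq2, with scaling by library size and without a count filter. DHX58 was also lost without si-SRSF11 replicate 3.

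RIG-I (DDX58), the sensor of short RNA ends with a triphosphate, stood at 11.8, 13.7 and 13.1 CPM in si-NC and 15.99, 14.8 and 14.1 CPM in si-SRSF11. All 3 si-SRSF11 libraries were above all 3 si-NC libraries, but the difference did not pass (log2 fold change 0.22, 95% interval -0.00098 to 0.43, adjusted p = 0.14). ADAR, which edits adenosines in double-stranded RNA and was the most abundant of the 7 per length, stood at 301, 303 and 305 CPM in si-NC and 318, 309 and 293 CPM in si-SRSF11. Its libraries overlapped and the interval of its difference was narrow (log2 fold change 0.018, 95% interval -0.079 to 0.11, adjusted p = 0.82). MAVS stood at 162, 166 and 164 CPM in si-NC and 178, 182 and 161 CPM in si-SRSF11 with overlap (log2 fold change 0.081, 95% interval -0.025 to 0.19, adjusted p = 0.27). TLR3, the endosomal sensor, had 50 to 89 counts in si-NC and 64 to 96 in si-SRSF11 and did not pass (log2 fold change 0.14, 95% interval -0.29 to 0.57, adjusted p = 0.68). The summed level of the 7 genes was 569 ± 6.97 CPM in si-NC and 604 ± 28.5 CPM in si-SRSF11 (SD, n = 3 each). These sums overlapped, with si-SRSF11 replicate 3 at 571 CPM and si-NC replicate 2 at 577 CPM. ADAR and MAVS, which did not pass, made up most of the sum.

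Of the 10 interferon regulatory factors, STAT2, receptor subunits and kinases, 4 (40%) were lower, beside 11.4% of all tested genes, and none was higher. The 10 had a median log2 fold change of -0.14. Their summed level was 517 ± 6.16 CPM in si-NC and 455 ± 10.2 CPM in si-SRSF11 (SD, n = 3 each). IRF3 (ENSG00000126456, chromosome 19, 49659569 to 49665875), the factor that the sensors activate first, had the smallest p of the 10. It stood at 115, 115 and 126 CPM in si-NC and 93.2, 82.9 and 96.04 CPM in si-SRSF11, so every si-SRSF11 library was below every si-NC library (log2 fold change -0.39, standard error 0.057, adjusted p = 3.0e-05). Of its exon bases, 19.4% lie opposite those of BCL2L12, which was itself lower (log2 fold change -0.26, adjusted p = 0.0040), and reads of the pair cannot be told apart unless the counting used strand, which is not stated.

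The 2 ISGF3 subunits on the list had unlike values. IRF9, which gives ISGF3 its DNA contact, was rare, with 36, 42 and 31 counts in si-NC and 18, 30 and 20 counts in si-SRSF11. No si-SRSF11 library reached the lowest si-NC library and the call was close to the threshold (log2 fold change -0.77, standard error 0.28, adjusted p = 0.049). It was lost under DESeq2 and in 4 of the 6 fits that left out a library, namely without si-NC replicate 1 or 2 and without si-SRSF11 replicate 1 or 3. The whole longest transcript of IRF9 is also contained in the read-through gene AL136295.5, with 5 to 16 counts per library, so the IRF9 count is uncertain. STAT2 stood at 30.00, 27.7 and 30.1 CPM in si-NC and 32.99, 31.99 and 31.2 CPM in si-SRSF11. Its si-SRSF11 libraries were all above its si-NC libraries, and the difference did not pass (log2 fold change 0.13, 95% interval -0.020 to 0.28, adjusted p = 0.20).

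Both kinases of the type I receptor were lower, beside 11.4% of all tested genes, and neither receptor subunit passed the test. TYK2, which sits on IFNAR1, stood at 114, 114 and 114 CPM in si-NC and 96.7, 94.2 and 92.9 CPM in si-SRSF11. The 3 si-NC libraries lay within 1 CPM of each other and far from the 3 si-SRSF11 libraries (log2 fold change -0.27, standard error 0.047, adjusted p = 0.00021). JAK1, which sits on IFNAR2, stood at 89.9, 85.8 and 80.95 CPM in si-NC and 78.1, 75.4 and 72.4 CPM in si-SRSF11, without overlap (log2 fold change -0.18, standard error 0.055, adjusted p = 0.017), although its call was lost without si-NC replicate 1 and without si-NC replicate 2. IFNAR1 was measured closely and did not pass (log2 fold change -0.026, 95% interval -0.15 to 0.10, adjusted p = 0.80). IFNAR2 had few counts, 83.3% of its exon bases also belong to other genes, and its interval was wide (log2 fold change -0.19, 95% interval -0.72 to 0.34, adjusted p = 0.63).

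The other interferon regulatory factors did not pass. IRF7, which amplifies interferon induction, stood at 69.9, 69.7 and 73.6 CPM in si-NC and 65.6, 65.8 and 71.3 CPM in si-SRSF11 (log2 fold change -0.073, 95% interval -0.19 to 0.043, adjusted p = 0.37). IRF1, an activator, had a log2 fold change of -0.10, and IRF2, a repressor of the same sites, had -0.0091, and both overlapped between the groups.

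Among the 36 effectors, 33 were tested, and 11 of them (33.3%) rose in si-SRSF11, beside 13.2% of all tested genes. Another 3 (9.09%) fell, no larger a share than the 11.4% of all tested genes that were lower. The log2 fold changes of these 33 effectors had their median at 0.16. The effectors that bind or degrade RNA held 6 of the 11 that were higher and none that was lower. These 9 genes summed to 480.0 ± 7.14 CPM in si-NC and 547 ± 9.50 CPM in si-SRSF11 (SD, n = 3 each). The 4 IFIT genes, whose family binds viral RNA and blocks its translation, were all higher. IFIT1 (ENSG00000185745, chromosome 10, 89392546 to 89406486) stood at 85.3, 82.8 and 81.8 CPM in si-NC and 108, 104 and 104 CPM in si-SRSF11, with each si-SRSF11 library above each si-NC library (log2 fold change 0.34, standard error 0.049, adjusted p = 2.9e-05). IFIT2, which binds RNA rich in A and U, stood at 75.2, 77.4 and 76.5 CPM in si-NC and 87.7, 88.8 and 87.9 CPM in si-SRSF11. Its libraries were tight within each group and did not overlap (log2 fold change 0.21, standard error 0.050, adjusted p = 0.0041), and 10.3% of its exon bases are shared with AL353751.1. IFIT3, a partner that stabilises IFIT1, stood at 34.1, 30.8 and 34.99 CPM in si-NC and 40.03, 39.3 and 40.97 CPM in si-SRSF11, and IFIT5, which binds RNA ends with a triphosphate, stood at 16.3, 16.3 and 18.1 CPM in si-NC and 21.4, 20.9 and 19.4 CPM in si-SRSF11. Neither pair of groups overlapped (IFIT3, log2 fold change 0.27, standard error 0.069, adjusted p = 0.0067, and IFIT5, log2 fold change 0.28, standard error 0.092, adjusted p = 0.028). IFIT3 lost its call without si-NC replicate 2, and IFIT5 lost its call under DESeq2, with scaling by library size and without any one of si-NC replicates 1 and 2 and si-SRSF11 replicates 1 and 2.

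The 2′-5′-oligoadenylate synthetases make the second messenger of RNase L on binding double-stranded RNA. OAS1 and OAS3 were higher and OAS2 did not pass, where 13.2% of all tested genes were higher. OAS3 (ENSG00000111331, chromosome 12, 112938352 to 112973249) stood at 82.9, 81.00 and 78.00 CPM in si-NC and 105, 101 and 90.5 CPM in si-SRSF11, and its lowest si-SRSF11 library, replicate 3, was still above its highest si-NC library (log2 fold change 0.29, standard error 0.057, adjusted p = 0.00065). OAS1 stood at 16.1, 13.6 and 17.01 CPM in si-NC and 20.7, 19.8 and 18.2 CPM in si-SRSF11, also without overlap (log2 fold change 0.33, standard error 0.10, adjusted p = 0.020), and lost its call in 3 of the 6 fits with 1 library left out, those without si-NC replicate 2 and without si-SRSF11 replicate 1 or 2. OAS2 was scarce, with 64, 65 and 57 counts in si-NC and 74, 63 and 74 counts in si-SRSF11, and overlapped (log2 fold change 0.091, 95% interval -0.28 to 0.47, adjusted p = 0.76). OASL, a relative without the synthetase activity, was the most abundant of the 9 genes per length. It stood at 129.8, 124 and 129 CPM in si-NC and 136, 126 and 135 CPM in si-SRSF11 and its difference was limited to a narrow interval that includes 0 (log2 fold change 0.049, 95% interval -0.051 to 0.15, adjusted p = 0.50). ISG20, an RNA exonuclease, did not pass (log2 fold change -0.13, 95% interval -0.28 to 0.014, adjusted p = 0.18).

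**Figure D2:**
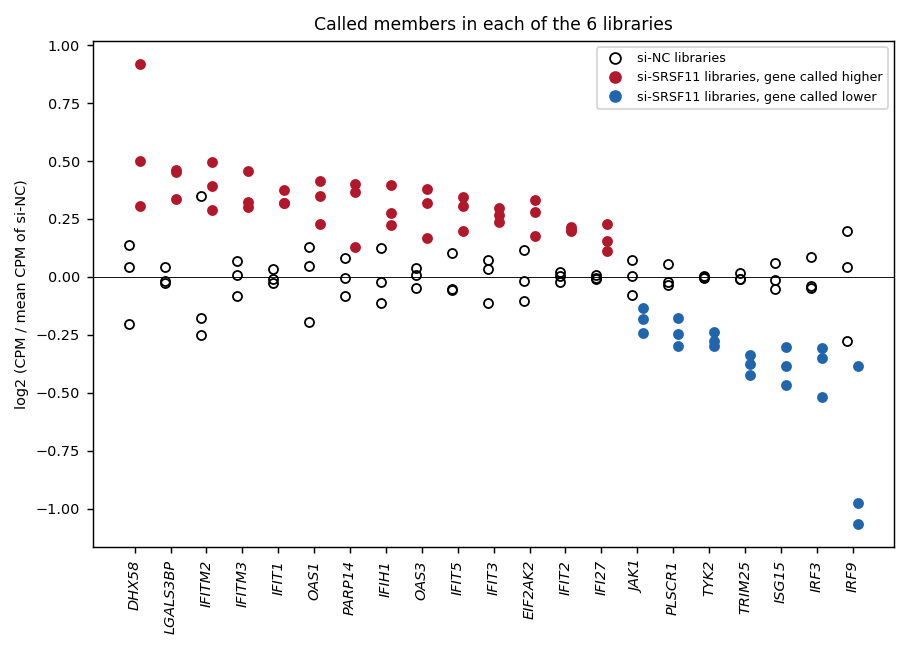
Log2 of TMM-scaled CPM over the mean CPM of si-NC, in each of the 6 libraries, for the 21 members with adjusted p under 0.05. Open circles are si-NC libraries. Filled circles are si-SRSF11 libraries, coloured by whether the gene was higher or lower. The 3 points of each group lie apart from those of the other in all of these genes except IFITM2, where si-NC replicate 2 reaches into the range of si-SRSF11.

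ISG15 moved against the IFIT genes, OAS1 and OAS3. ISG15 (ENSG00000187608, chromosome 1, 1001138 to 1014540 in the deposited annotation), a ubiquitin-like protein that is attached to other proteins after interferon and had the highest level per length of all members, was lower. It stood at 478, 466 and 504 CPM in si-NC and 370.4, 349 and 392 CPM in si-SRSF11, so the highest si-SRSF11 library was 392 CPM and the lowest si-NC library 466 CPM. The level in si-SRSF11 was 76.7% of that in si-NC (log2 fold change -0.38, standard error 0.050, adjusted p = 7.4e-06), and the call held in each of the 15 other fits. Of the 3 genes that attach or remove ISG15, none passed, where 24.6% of all tested genes passed in either direction. USP18, the protease that removes ISG15 and also restrains IFNAR2, stood at 34.8, 34.1 and 34.9 CPM in si-NC and 30.5, 32.1 and 33.2 CPM in si-SRSF11, and each si-SRSF11 library was below each si-NC library (log2 fold change -0.12, 95% interval -0.26 to 0.028, adjusted p = 0.24), and 15.4% of its 100-base windows also occur in USP41. UBE2L6, the conjugating enzyme, had 11, 10 and 10 counts in si-NC and 17, 21 and 14 counts in si-SRSF11 and lay above without passing (log2 fold change 0.65, 95% interval -0.13 to 1.43, adjusted p = 0.22). HERC5, the ligase, overlapped between the groups (log2 fold change 0.28, 95% interval -0.022 to 0.58, adjusted p = 0.17).

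Membrane and secreted effectors summed to 576 ± 6.21 CPM in si-NC and 749 ± 26.2 CPM in si-SRSF11 (SD, n = 3 each). Of the 6, 3 (50%) were higher and 1 (16.7%) lower, beside 13.2% and 11.4% of all tested genes. LGALS3BP (ENSG00000108679, chromosome 17, 78971238 to 78980109), a secreted glycoprotein that binds galectins, was second to ISG15 in level per length. It stood at 388, 386 and 405 CPM in si-NC and 539, 497 and 541 CPM in si-SRSF11, which is a rise from 393 ± 10.3 to 526 ± 25.04 CPM (SD, n = 3 each). The groups did not overlap (log2 fold change 0.42, standard error 0.047, adjusted p = 1.0e-06), and it had the smallest p of the 50 members. IFITM3 (ENSG00000142089, chromosome 11, 319669 to 327537), which blocks the fusion of enveloped viruses in endosomes, stood at 106, 94.8 and 101 CPM in si-NC and 124, 126 and 138 CPM in si-SRSF11, likewise without overlap (log2 fold change 0.36, standard error 0.054, adjusted p = 3.1e-05), and 21.3% of its exon bases lie opposite AC136475.5. IFITM2 stood at 46.2, 66.4 and 43.9 CPM in si-NC and 63.7, 73.5 and 68.5 CPM in si-SRSF11. The groups overlapped because si-NC replicate 2 lay above si-SRSF11 replicate 1 (log2 fold change 0.39, standard error 0.10, adjusted p = 0.0057), and the call was lost under DESeq2 and without si-NC replicate 1 or 3. IFITM1 shares 37.7% of its 100-base windows with other genes and did not pass (log2 fold change -0.31, 95% interval -0.90 to 0.29, adjusted p = 0.48), and reads of IFITM1 and IFITM2, whose annotated exons overlap, may have been split or dropped in counting. PLSCR1, a phospholipid scramblase induced by interferon, was lower, at 27.2, 26.9 and 28.6 CPM in si-NC and 24.4, 22.4 and 23.2 CPM in si-SRSF11 (log2 fold change -0.24, standard error 0.079, adjusted p = 0.028), and its call was lost under DESeq2 and in 4 of the 6 fits that left out a library (each of si-NC replicates 1, 2 and 3, and si-SRSF11 replicate 2). BST2, the tether that holds budding virions, had few counts and did not pass (log2 fold change 0.30, 95% interval -0.44 to 1.03, adjusted p = 0.59).

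Of the TRIM, PARP and SP100 proteins, 1 of 6 was higher and 1 lower (16.7% each), near the 13.2% and 11.4% of all tested genes. TRIM25 (ENSG00000121060, chromosome 17, 56836387 to 56914080), a ubiquitin ligase known for acting on RIG-I, stood at 192, 192 and 195 CPM in si-NC and 149, 153 and 144 CPM in si-SRSF11. The 3 libraries of each group lay close together and the groups were well apart (log2 fold change -0.38, standard error 0.047, adjusted p = 3.3e-06), with 8.80% of its exon bases shared with other genes. PARP14, a mono-ADP-ribosyltransferase, stood at 56.1, 52.7 and 50.1 CPM in si-NC and 69.95, 68.4 and 57.9 CPM in si-SRSF11, and si-SRSF11 replicate 3 was closest to the si-NC libraries without reaching them (log2 fold change 0.31, standard error 0.069, adjusted p = 0.0023). PARP9 and DTX3L, which form a complex and share a divergent promoter, did not pass (PARP9, log2 fold change 0.15, 95% interval -0.052 to 0.36, adjusted p = 0.28, and DTX3L, log2 fold change 0.0012, 95% interval -0.15 to 0.16, adjusted p = 0.99). TRIM21, the cytoplasmic antibody receptor, stood at 19.4, 16.3 and 18.8 CPM in si-NC and 19.2, 21.5 and 20.2 CPM in si-SRSF11 with overlap (log2 fold change 0.16, 95% interval -0.035 to 0.36, adjusted p = 0.23), and SP100, a component of nuclear bodies, did not pass either (log2 fold change 0.11, 95% interval -0.084 to 0.30, adjusted p = 0.43).

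The remaining group, with Mx, SAMD9 and other interferon-induced proteins, had 1 gene of 8 tested that was higher (12.5%) and none that was lower. Of all tested genes, 13.2% were higher and 11.4% lower. IFI27, a mitochondrial protein often used as a marker of interferon exposure, stood at 84.7, 85.5 and 84.5 CPM in si-NC and 94.6, 91.9 and 99.7 CPM in si-SRSF11. The si-SRSF11 libraries were all above, by the smallest log2 fold change of the 21 called members (log2 fold change 0.17, standard error 0.051, adjusted p = 0.019), and the call was lost with scaling by library size and without any one of si-NC replicates 1, 2 and 3 and si-SRSF11 replicate 3. IFI6, another mitochondrial protein and the most abundant gene of the group per length, stood at 75.3, 73.8 and 82.04 CPM in si-NC and 79.7, 77.96 and 85.00 CPM in si-SRSF11 with overlap (log2 fold change 0.070, 95% interval -0.048 to 0.19, adjusted p = 0.40). MX1, the GTPase that blocks influenza virus, had 112, 97 and 92 counts in si-NC and 111, 126 and 117 counts in si-SRSF11 and overlapped (log2 fold change 0.14, 95% interval -0.16 to 0.44, adjusted p = 0.52). MX2, SAMD9, IFI35, IFI44 and HERC6 did not pass either, and only IFI35 had groups that did not overlap, with si-SRSF11 below (log2 fold change -0.15, 95% interval -0.33 to 0.029, adjusted p = 0.22).

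Levels per length, in CPM per kb of exon averaged over the 6 libraries, covered a wide range. ISG15 stood at 453, LGALS3BP at 128, IFI6 at 91.3 and IFITM3 at 85.2 CPM per kb. They were followed by IFITM2 at 39.1, OASL at 36.97, ADAR at 31.5, IRF3 at 27.6 and IRF7 at 26.4 CPM per kb. Of the 53 members, 20 were at 10 CPM per kb or more and 12 were under 1 CPM per kb. IFIT1, at 20.4, and PKR, at 6.90 CPM per kb, were far below ISG15, and IRF9, at 0.503 CPM per kb, was among the lowest that were tested.

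**Figure D3:**
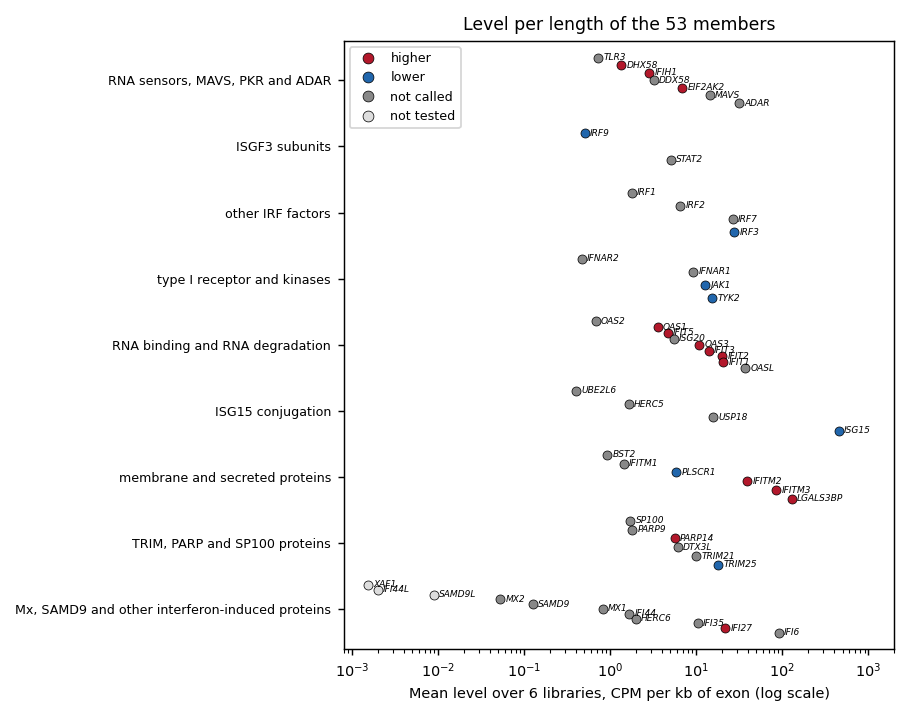
Mean level of the 53 members over the 6 libraries in CPM per kb of exon (log scale), grouped by role, with colours for the result of the test. ISG15 stands highest at 453 CPM per kb, and the 3 members that were not tested lie at the left end.

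Neighbouring members in the genome partly moved together. On chromosome 10, IFIT2, IFIT3, IFIT1 and IFIT5 lie in this order on the plus strand from 89283694 to 89421001, and all 4 were higher. On chromosome 12, OAS1, OAS3 and OAS2 lie on the plus strand with 5129 and 5145 bases between them, and the first 2 were higher while OAS2 did not pass. On chromosome 11, IFITM2 and IFITM3 were higher, and IFITM1, whose annotated span lies inside that of IFITM2, did not pass. On chromosome 3, PARP14 was higher, and DTX3L, which ends 105414 bases before it, and PARP9 did not pass. In the pairs MX2 and MX1, HERC6 and HERC5, and IFNAR2 and IFNAR1, no gene passed. Whether neighbours differ from each other was not tested.

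Ratios of 2 genes within a library do not depend on the scaling between libraries. The 4 ratios given here were chosen after the values of their genes were seen, so they carry no test. IFIT1 counts over ISG15 counts gave 0.178, 0.177 and 0.162 in si-NC and 0.291, 0.297 and 0.265 in si-SRSF11. It went from 0.173 ± 0.00898 to 0.285 ± 0.0173 (SD, n = 3 each), a factor of 1.65, and the groups did not overlap. IFITM3 counts over ISG15 counts gave 0.221, 0.203 and 0.201 in si-NC and 0.335, 0.361 and 0.352 in si-SRSF11, a factor of 1.68. RNF135 and TRIM25, the pair of ubiquitin ligases known for acting on RIG-I, went in opposite directions, and RNF135 counts over TRIM25 counts were 0.0697, 0.0573 and 0.0706 in si-NC and 0.125, 0.110 and 0.105 in si-SRSF11, a factor of 1.72. IFNGR1 and IFNGR2, the subunits of the type II receptor, also went apart, with IFNGR1 counts over IFNGR2 counts of 0.789, 0.725 and 0.723 in si-NC and 1.16, 1.28 and 1.16 in si-SRSF11, a factor of 1.61.

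**Figure D4:**
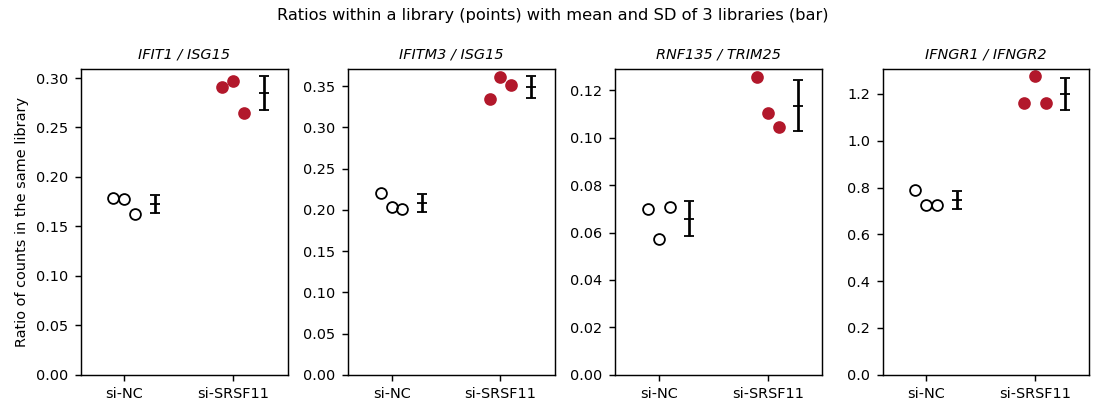
Ratios of the counts of gene pairs in each of the 6 libraries, with points for libraries and bars for group means. All 4 ratios are higher in the 3 si-SRSF11 libraries than in the 3 si-NC libraries, by factors of 1.61 to 1.72.

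A further 83 genes of the same pathway, outside the 53, were listed by role, and 75 were tested. Of these, 15 were higher (20%) and 11 lower (14.7%), with a median log2 fold change of 0.065, beside the 13.2% and 11.4% of all tested genes. None of the 4 tested interferon ligands passed. Among the type II and III receptors and JAK2, IFNGR1 was higher at 67.6, 62.6 and 65.2 CPM in si-NC and 81.7, 85.2 and 82.5 CPM in si-SRSF11 (log2 fold change 0.35, standard error 0.054, adjusted p = 4.5e-05), without overlap. IFNGR2 was lower at 85.6, 86.4 and 90.1 CPM in si-NC and 70.4, 66.8 and 71.1 CPM in si-SRSF11 (log2 fold change -0.33, standard error 0.053, adjusted p = 7.8e-05), also without overlap. The type III receptor subunit IFNLR1 was lower as well (log2 fold change -0.16, adjusted p = 0.040).

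Of 13 genes that act between the sensors and the IRF factors, 3 were higher (23.1%) and 1 was lower (7.69%). Of all tested genes, 13.2% were higher and 11.4% lower. TBK1, the kinase of IRF3, stood at 15.7, 16.8 and 15.7 CPM in si-NC and 21.8, 19.9 and 19.7 CPM in si-SRSF11 (log2 fold change 0.35, standard error 0.092, adjusted p = 0.0068). Its binding partner TANK was higher (log2 fold change 0.31, adjusted p = 0.012), and so was RNF135 (log2 fold change 0.41, adjusted p = 0.010). IKBKG, the scaffold subunit of the IKK complex, was lower (log2 fold change -1.14, adjusted p = 3.5e-05), but 44.3% of its windows also occur in the pseudogene IKBKGP1, and its count is uncertain. Of 10 negative regulators, the phosphatase PTPN2 (log2 fold change 0.22, adjusted p = 0.026) and TRIM24 (log2 fold change 0.24, adjusted p = 0.0083) were higher, and the phosphatase PTPN1 (log2 fold change -0.28, adjusted p = 0.00040) and IRF2BP2 (log2 fold change -0.23, adjusted p = 0.0032) were lower. Of the exon bases of TBK1, IRF2BP2 and IFNGR2, 14.7%, 14.7% and 12.8% lie opposite another gene.

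Among 31 other interferon-stimulated genes tested, 7 were higher (22.6%) and 6 lower (19.4%), beside 13.2% and 11.4% of all tested genes. Those higher were DDX60L (0.49), TRIM14 (0.40), APOL6 (0.50), SHISA5 (0.14), PNPT1 (0.18), LY6E (0.22) and ZNFX1 (0.19), with log2 fold changes in parentheses. Those lower were HELZ2 (-0.26), LAMP3 (-0.64), TRIM56 (-0.16), TDRD7 (-0.29), C19orf66 (-0.30) and RBCK1 (-0.50). Of the exon bases of C19orf66, 27.1% lie opposite AC020931.1, and of those of TRIM14, 7.72% lie opposite NANS. RBCK1, a subunit of the linear ubiquitin ligase, had the smallest p of these, at 328, 319.7 and 341 CPM in si-NC and 239, 222 and 236 CPM in si-SRSF11 (log2 fold change -0.50, standard error 0.048, adjusted p = 9.7e-08). Of 12 other proteins that bind double-stranded RNA, the helicases DHX9, at 122, 122 and 126 CPM in si-NC and 162, 164 and 161 CPM in si-SRSF11 (log2 fold change 0.40, standard error 0.046, adjusted p = 1.4e-06), and DHX36 (log2 fold change 0.32, adjusted p = 0.0014) were higher, and neither had overlapping groups. The other 10 did not pass, and the 16.7% of the 12 that were higher is near the 13.2% of all tested genes.

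**Figure D5:**
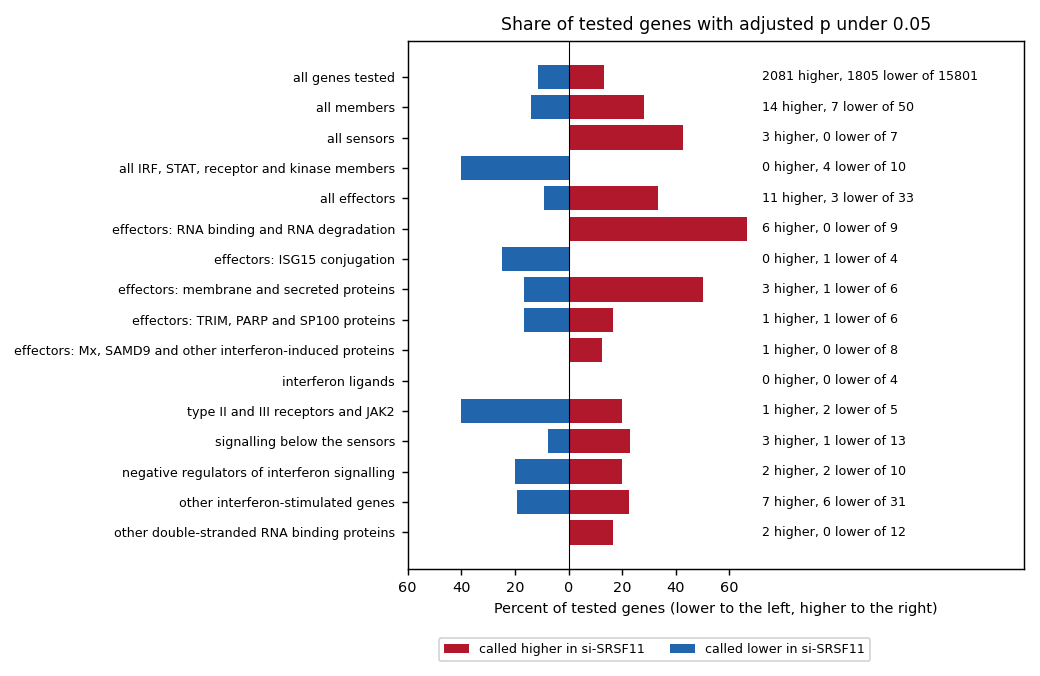
Percent of tested genes with adjusted p under 0.05 in each role list, higher in si-SRSF11 to the right and lower to the left, with counts at the right edge. The bar of the 50 members reaches 28% to the right and 14% to the left, and that of all 15801 genes 13.2% and 11.4%.

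The directions of the 21 called members held in the 15 other fits, which changed the scaling, the filter on low counts or the test, or left out 1 library, except that IRF9 was not tested with a minimum of 50 counts. Of these, 11 kept an adjusted p under 0.05 in each of them, namely EIF2AK2, IRF3, TYK2, IFIT1, IFIT2, OAS3, ISG15, IFITM3, LGALS3BP, TRIM25 and PARP14. Without si-NC replicate 2, 8 members were higher and 4 lower, and without si-NC replicate 1, 11 were higher and 4 lower. Calls over all genes fell too, to 10.1% higher and 9.28% lower without si-NC replicate 2 and to 9.43% and 8.11% without si-NC replicate 1.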

How the data were processed

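Polyadenylated RNA of LoVo cells was sequenced in 3 si-NC and 3 si-SRSF11 libraries. The deposited table holds the authors' raw counts for 58735 genes, without normalization or filter, on hg38 as named in the submitters' processing notes. All 58735 identifiers were found in GENCODE 29. The aligner, the counting program and its strand setting are not given in the sources used here. Genes that reached 10 counts in 3 or more libraries were scaled by TMM and fitted with edgeR 4.0.16 (R 4.3.3, glmQLFit and glmQLFTest, condition alone), with Benjamini-Hochberg adjustment over 15801 genes. Standard errors come from the quasi-likelihood F statistic. Only the main edgeR fit was run on simulated data, which had the same dispersion for all genes, and the alternative fits were not. The 6 libraries held 14369525 to 16685719 counts, which limits precision mostly in members under 50 counts. Replicates differed by more than counting error (chi-square per degree of freedom 2.08 to 5.42 within a group, 12.3 to 15.7 across), and each counted as 1 sample.

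The members and lists were chosen with earlier results of these data known. Any member may be named. Full statistics are for members with adjusted p under 0.05, and per-library values also for the 2 members of each role with the highest level per length. The per-library values of DDX58, OAS2, UBE2L6 and MX1 fall outside this rule. Of other pathway genes, those with adjusted p under 0.05 are named, and names outside this rule are marked. Shared exons and 100-base windows were computed from GENCODE 29, and promoters come from RefSeq GRCh38.p14. Alternatives were DESeq2 1.42.0, other scalings and filters, a replicate block and each library left out.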

Additional observations from a re-analysis of the deposited data

How the results depend on the processing

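Of the 21 members called, 11 kept their call in each of 15 other fits and none changed direction in any that tested it. With an absolute log2 fold change over 1, 0 members were higher and 0 lower, and of the other pathway genes 0 were higher and 1, IKBKG, was lower. With an adjusted p under 0.01, 9 members were higher and 4 lower, and 9 and 7 of the other pathway genes. The shares of all tested genes at either threshold were not computed, so these counts do not show whether the members stand out. With each library left out in turn, 8 to 14 members were higher and 4 to 7 lower, the fewest without si-NC replicate 2 (8 higher, 4 lower) and, for those lower, also without si-NC replicate 1. Over all genes, the same fits called 1473 to 1981 higher and 1268 to 1890 lower, against 2081 and 1805. Of the other pathway genes, 10 to 15 were higher and 7 to 10 lower, the fewest lower (7) without si-NC replicate 3. The members' median log2 fold change of 0.12 was 0.085 with scaling by library size and 0.070 to 0.14 with 1 library left out, lowest without si-NC replicate 3. Scaling by library size moved the median of all genes by -0.034, with 1585 higher and 2289 lower against 2081 and 1805, and left 11 members higher and 7 lower. HERC5, ISG20 and MAVS passed only without si-SRSF11 replicate 3. The sign changed only in members that did not pass. ADAR was at -0.016 with scaling by library size. DTX3L, at 0.0012, was at -0.0047 under DESeq2, -0.034 by library size, -0.0071 by upper quartile, -0.0046 by RLE, -0.0054 without filter, -0.0050 with at least 50 counts and -0.010 among protein-coding genes. With 1 library left out, log2 fold changes of TLR3 (-0.078 to 0.33), ADAR (-0.013 to 0.045), IRF2 (-0.068 to 0.039), IFNAR1 (-0.077 to 0.011), DTX3L (-0.075 to 0.069), IFI44 (-0.035 to 0.55) and HERC6 (-0.17 to 0.055) spanned 0.

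The deviations of same-numbered libraries from their group means correlated at 0.015 to 0.040, and those of differently numbered libraries at -0.034 to -0.0031. Every library thus correlated best with its own number. The labels do not say whether same-numbered samples were prepared together, and a shared preparation was not tested. With the replicate number as a block, 14 members were higher and 7 lower, and 16 and 11 of the other pathway genes. In that fit, 13.6% of all tested genes were higher and 12.0% lower. IRF9 has no value with at least 50 counts, since it is then not tested. Depth limits the members with few counts, whose intervals are wide (UBE2L6, MX2, SAMD9, BST2, IFNAR2 and IFITM1).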

Other observations

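None of the 4 interferon genes tested passed, and the values given here were chosen after they were seen. IFNB1, the first type I interferon made after RNA sensing, had 10, 9 and 12 counts in si-NC and 21, 13 and 24 counts in si-SRSF11. Its si-SRSF11 libraries were all above its si-NC libraries, but the difference did not pass with edgeR's quasi-likelihood test (log2 fold change 0.81, 95% interval 0.021 to 1.59, adjusted p = 0.13). IFNL1, a type III interferon, had 125, 100 and 123 counts in si-NC and 140, 169 and 156 counts in si-SRSF11, with the same order of the groups (log2 fold change 0.33, 95% interval 0.050 to 0.60, adjusted p = 0.079). IFNL2 and IFNL3 overlapped between the groups, and IFNE and IFNG had 0 counts in all 6 libraries.

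Chemokines that interferon induces did not pass either, and were also chosen after their values were seen. CCL5 stood at 69.3, 67.4 and 70.6 CPM in si-NC and 73.7, 74.5 and 76.96 CPM in si-SRSF11 (log2 fold change 0.12, 95% interval 0.0093 to 0.23, adjusted p = 0.11), with the groups apart. CXCL10 stood at 14.1, 11.6 and 12.3 CPM in si-NC and 13.7, 11.8 and 14.2 CPM in si-SRSF11 and overlapped (log2 fold change 0.069, 95% interval -0.17 to 0.30, adjusted p = 0.71). CXCL11 was rarer, at 3.86, 5.13 and 3.40 CPM in si-NC and 5.05, 6.40 and 5.46 CPM in si-SRSF11, and overlapped as well (log2 fold change 0.45, 95% interval 0.070 to 0.83, adjusted p = 0.077).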
